A study of Mus musculus with 36 samples.

Results

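Mouse duodenal organoids exposed to repeated pulses of the gamma-secretase inhibitor DAPT were compared with DMSO controls, with all 3 pulse periods pooled, to measure what the pulses had in common whatever their period. All 36 libraries of the series entered, 27 with DAPT and 9 with DMSO, and the libraries were assigned by their labelled treatment alone. The DAPT libraries were 9 with a period of 90 min (1.38 µM DAPT), 9 with 130 min (2 µM) and 9 with 170 min (2.6 µM, where the labels also name 2 µM), so dose and period cannot be told apart. Each treatment, DMSO included, was run for 24, 48 and 72 h with 3 libraries per treatment and duration. The organoids came from C57BL/6 mice, either males or virgin females over 8 weeks of age, were held in a microfluidic chip under flow, and had been passaged 3, 2 or 1 days before the 24, 48 and 72 h runs, so duration and time since passage cannot be told apart. Each library was made from a pool of organoids. The labels say neither whether the DMSO was delivered in pulses nor whether replicates were separate cultures or animals, and p-values therefore measure the spread between these libraries, which may be technical. Every DAPT library of a duration was compared with the same 3 DMSO libraries of that duration, and the effect was the mean over periods and durations with equal weight.

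Intestinal organoids grow from crypt stem cells and hold the absorptive and secretory cell types of the epithelium. Notch receptors, once bound by the ligands Dll1 and Dll4 or the Jagged proteins on a neighbouring cell, are cut by gamma-secretase, and the released domain joins the DNA-binding protein Rbpj to switch on repressors such as Hes1. Hes1 holds down Atoh1, the factor that starts the secretory programme of goblet, Paneth and enteroendocrine precursors, and sustained gamma-secretase inhibition is known to convert crypt cells to secretory fates. DAPT blocks the cleavage, and pulses of it are used to impose a rhythm on the oscillating expression of Notch targets such as Hes1.

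Total molecule counts ran from 610977 to 1447330 in the DAPT libraries (median 1011523) and from 482741 to 1193223 in the DMSO libraries (median 828506). The gap was widest at 24 h, where the DMSO libraries held 482741, 802900 and 807127 molecules and the DAPT libraries had a mean of 1039675. The share of mitochondrially encoded molecules was 0.894 to 1.37% with DAPT and 0.867 to 1.48% with DMSO. Epithelial markers summed to 2583 to 3719 CPM (counts relative to library size) with DAPT and 2844 to 3616 with DMSO. The marker sums are not scaled by TMM factors, while the CPM of single genes given below are. Fibroblast, immune and endothelial markers (6, 5 and 4 genes in the table) summed to at most 5.25, 14.6 and 11.7 CPM in any library, and 0 of them passed the filter on low counts. Duodenal markers summed to 390.5 to 582 CPM with DAPT and 410 to 553 with DMSO, against 39.7 CPM at most for ileal markers, so the labelled tissue carried its markers in both arms. Libraries with the same replicate number and duration deviated together within 2 pairs of treatments: all 9 such pairs of 130 and 170 min libraries had correlations of 0.286 to 0.657, and 8 of 9 pairs of 90 min and DMSO libraries were above 0.1 (0.0218 to 0.582). For 130 and 170 min, a difference from DMSO therefore cannot be told apart from a difference between these linked sets. In bulk libraries, fewer cells of a type and less RNA per cell cannot be told apart.

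No gene passed an adjusted p of 0.05 between pooled DAPT and DMSO (edgeR's quasi-likelihood test, Benjamini-Hochberg adjustment over 11462 genes, 0 called, 0% of those tested). The smallest adjusted p was 0.196, shared by Klf11, which stood higher with DAPT, and Cstf2, which stood lower. At an unadjusted p under 0.05 there were 765 genes, 357 higher (3.11% of those tested) and 408 lower (3.56%). These counts rested in part on single DMSO libraries: they were 335 higher and 199 lower without replicate 1 of 24 h, 609 and 596 without replicate 1 of 48 h, 282 and 242 without replicate 2 of 48 h, and 279 and 219 without replicate 1 of 72 h. DESeq2 also called 0 genes, with 550 at an unadjusted p under 0.05, and limma voom called 0, with 908. The estimated changes were small: the median size was 0.0823 on the log2 scale, 95% of genes lay within 0.356 of 0, and 27 genes exceeded 1. The precision was correspondingly fine for most genes. The median standard error was 0.105, and the 95% interval lay within ±1 on the log2 scale for 95.28% of tested genes (10920) and within a change of 1.5-fold for 81.84% (9381). The 22735 genes that did not pass the filter were not tested.

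**Figure D1:**
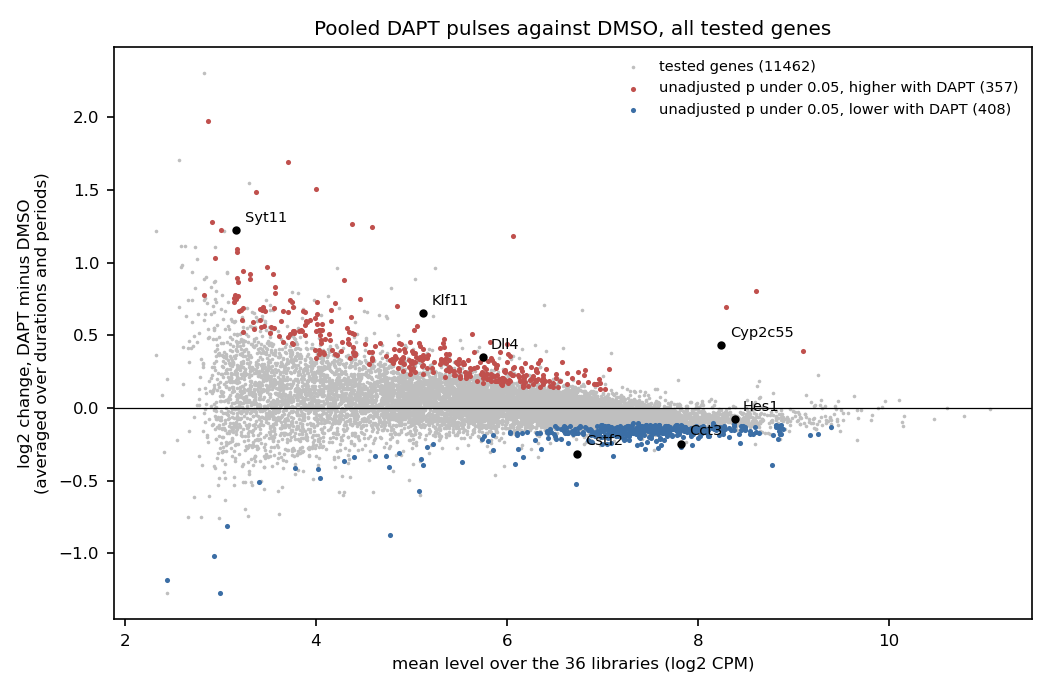
Each point is 1 of the 11462 tested genes, with its mean level over all libraries (log2 CPM) on the horizontal axis and the averaged log2 change, DAPT minus DMSO, on the vertical axis. The 357 higher and 408 lower genes at an unadjusted p under 0.05 are coloured, and the higher ones lie mostly at low levels and the lower ones mostly at high levels.

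Klf11, a Krüppel-like zinc finger transcription factor, had the largest change relative to its error among the genes that stood higher. Its level ran from 25.4 to 52.6 CPM (median 36.5) in the 27 DAPT libraries and from 5.19 to 40.1 CPM (median 24.0) in the 9 DMSO libraries. The groups did not overlap at 24 h, where the DMSO libraries were at 5.19, 16.2 and 20.5 CPM, from 4, 7 and 16 molecules, and the DAPT libraries between 25.7 and 40.3. They overlapped at 48 h (DMSO 26.0, 29.8 and 40.1 CPM) and at 72 h (20.1, 24.0 and 32.2 CPM). The averaged log2 change was 0.65 (SE 0.14), made of 1.33 (SE 0.27) at 24 h, 0.16 (SE 0.21) at 48 h and 0.47 (SE 0.22) at 72 h. Klf11 stood above the DMSO mean of its duration in 26 of 27 DAPT libraries, and its change was 0.71, 0.65 and 0.59 for periods of 90, 130 and 170 min, estimates that share the same DMSO libraries. Without the 24 h libraries the change was 0.31, and without replicate 3 of the DMSO libraries of 24 h it was 0.83 with an adjusted p of 0.0399.

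Cstf2, the RNA-binding subunit of the cleavage stimulation factor that acts when the 3′ end of a messenger RNA is made, stood lower by a smaller amount that varied less with duration. It ran from 79.4 to 125 CPM (median 98.1) with DAPT and from 108 to 150 CPM (median 121) with DMSO, and 26 of 27 DAPT libraries were below the DMSO mean of their duration. The DMSO values were 113, 132 and 134.5 CPM for 24 h, 114, 121 and 149.9 for 48 h and 108, 109 and 124 for 72 h. The averaged log2 change was -0.31 (SE 0.065), with -0.35, -0.37 and -0.22 at 24, 48 and 72 h and -0.34, -0.36 and -0.24 for 90, 130 and 170 min. Without replicate 1 of the 90 min libraries of 72 h, the highest DAPT value at 125 CPM, its adjusted p was 0.0311. Of the 20 tested factors of messenger RNA 3′ end processing, 6 stood higher and 14 lower, with a median of -0.03. Beside Cstf2, Pabpn1, a nuclear poly(A)-binding protein, was the other member at an unadjusted p under 0.05, in the opposite direction (0.34, SE 0.16).

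The promoters of both leading genes, and of Dll4, the Notch ligand described below, are shown because they are the windows in which a shared regulatory element of the leading genes could be looked for. Each is the RefSeq window of 300 bases around the annotated start (GRCm38.p6), printed 5′ to 3′ with matches to the GC box GGGCGG or its reverse complement in capitals.
Klf11 (chr12:24651121-24651420, plus strand): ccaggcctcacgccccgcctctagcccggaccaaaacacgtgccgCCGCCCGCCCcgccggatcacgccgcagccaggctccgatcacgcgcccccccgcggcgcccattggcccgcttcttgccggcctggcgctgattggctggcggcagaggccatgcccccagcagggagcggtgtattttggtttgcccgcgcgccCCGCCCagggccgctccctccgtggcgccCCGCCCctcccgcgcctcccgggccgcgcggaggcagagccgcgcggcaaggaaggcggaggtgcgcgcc
Cstf2 (chrX:134058926-134059225, plus strand): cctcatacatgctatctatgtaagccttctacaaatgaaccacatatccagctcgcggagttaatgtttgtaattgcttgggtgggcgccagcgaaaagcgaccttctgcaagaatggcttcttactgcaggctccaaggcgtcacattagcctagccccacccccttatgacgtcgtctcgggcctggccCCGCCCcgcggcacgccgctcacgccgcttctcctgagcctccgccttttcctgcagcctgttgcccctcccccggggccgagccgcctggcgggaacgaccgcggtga
Dll4 (chr2:119325534-119325833, plus strand): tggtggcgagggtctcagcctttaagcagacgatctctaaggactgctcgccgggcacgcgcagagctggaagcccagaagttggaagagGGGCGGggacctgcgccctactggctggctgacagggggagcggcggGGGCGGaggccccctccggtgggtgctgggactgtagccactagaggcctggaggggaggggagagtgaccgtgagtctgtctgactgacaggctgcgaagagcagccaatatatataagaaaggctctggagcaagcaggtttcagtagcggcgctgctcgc
The Klf11 window held 4 GC box matches, 2 of them overlapping, the Cstf2 window 1 and the Dll4 window 2. A GC box match was present in 62.9% of the 11187 windows of tested genes, where a gene can have more than 1 window. Of the 11462 tested genes 8783 had a window. The core TGGGAA bound by Rbpj, searched on both strands, matched in 0 of the 3 windows, against 22.8% of the windows of tested genes. Of the 20 leading genes 17 had a window, and over their 24 windows 75% held a GC box match and 16.7% held TGGGAA. These matches describe letters in a window and were not tested against the expression values.

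The other leading genes that stood higher were of mixed function. Cyp2c55, an intestinal cytochrome P450, ran from 204 to 559.5 CPM (median 299) with DAPT and from 99.95 to 365 (median 253) with DMSO, a log2 change of 0.43 (SE 0.11) that was widest at 48 h (0.77). At 48 h every DAPT library, from 265 CPM up, was above every DMSO library (99.95, 187 and 264 CPM). Hepacam2, an immunoglobulin-family adhesion protein known from secretory cells of the intestine, ran from 60.8 to 140 CPM with DAPT and from 64.3 to 89.8 with DMSO (0.32, SE 0.092). It too did not overlap at 48 h, when its DMSO libraries were at 64.3, 76.8 and 78.5 CPM and the lowest DAPT library was at 91.5. Tbc1d8, a protein with the Rab GTPase-activating domain, stood at 0.41 (SE 0.11), Lbh, a transcriptional cofactor, at 0.44 (SE 0.12), Cln3, a lysosomal membrane protein, at 0.28 (SE 0.083), and Mcf2l, a guanine nucleotide exchange factor, at 0.37 (SE 0.11), all as estimates with an adjusted p of 0.706.

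Syt11, a synaptotagmin of vesicle traffic, 1110003F10Rik and Pdzrn3, a ubiquitin ligase with PDZ domains, had the largest estimates among the leading genes and the fewest molecules. Syt11 was at 0, 0 and 2.60 CPM in the DMSO libraries of 24 h and at 1.22 to 14.8 in the DAPT libraries, and 1110003F10Rik was at 0, 0 and 5.19 against 2.01 to 10.9. The fitted changes of 1.23 (SE 0.36) for Syt11 and 1.22 (SE 0.35) for 1110003F10Rik depend on how a count of 0 is handled and give no bound on the fold. Pdzrn3 had means of 7.58 ± 2.73 CPM (SD, n = 27) with DAPT and 4.48 ± 2.44 (SD, n = 9) with DMSO, a log2 change of 0.90 (SE 0.25).

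The 10 leading genes that stood lower were also of mixed function, with averaged changes from -0.39 to -0.21. Cct3, a subunit of the CCT chaperonin that folds actin and tubulin, ran from 179 to 265 CPM (median 215) with DAPT and from 218 to 321 (median 250) with DMSO, and the averaged change was -0.24 (SE 0.058). Eif4g1, the scaffold of the cap-binding translation initiation complex, stood at -0.28 (SE 0.071) and Snrpd2, an Sm protein of the spliceosome, at -0.26 (SE 0.066). Tacc3, which stabilises the mitotic spindle, ran from 109 to 181 CPM with DAPT and from 162 to 234 with DMSO, and all 27 DAPT libraries were below the DMSO mean of their duration (-0.24, SE 0.065). The same held for Mta3, a subunit of the NuRD chromatin complex (-0.22, SE 0.061). Nfkbia, the inhibitor that holds NF-kB in the cytoplasm, was at 225.5, 227 and 233.5 CPM in the DMSO libraries of 24 h and at 166 to 225 with DAPT, so the groups did not overlap there, and averaged -0.21 (SE 0.060). Mthfd1, an enzyme of folate metabolism (-0.22, SE 0.058), Mtmr14, a phosphoinositide phosphatase (-0.39, SE 0.10), and B020010K11Rik (-0.33, SE 0.077) completed the 10. B020010K11Rik stood at 157, 165 and 243 CPM with DMSO at 24 h and at 98.1 to 138 with DAPT, and its change went from -0.64 at 24 h to -0.09 at 72 h.

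These 20 genes were chosen for having 1 sign at every duration and at every period. Across the 9 combinations of period and duration the sign was the same in 13 of them, Klf11, Cstf2, Cct3, Tacc3 and Nfkbia among them, which describes the choice and supports nothing further. Agreement across periods at 1 duration is partly built in, since the 3 comparisons share their DMSO libraries. Over all genes at an unadjusted p under 0.05, 639 of 765 had 1 sign at every duration and every period.

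**Figure D2:**
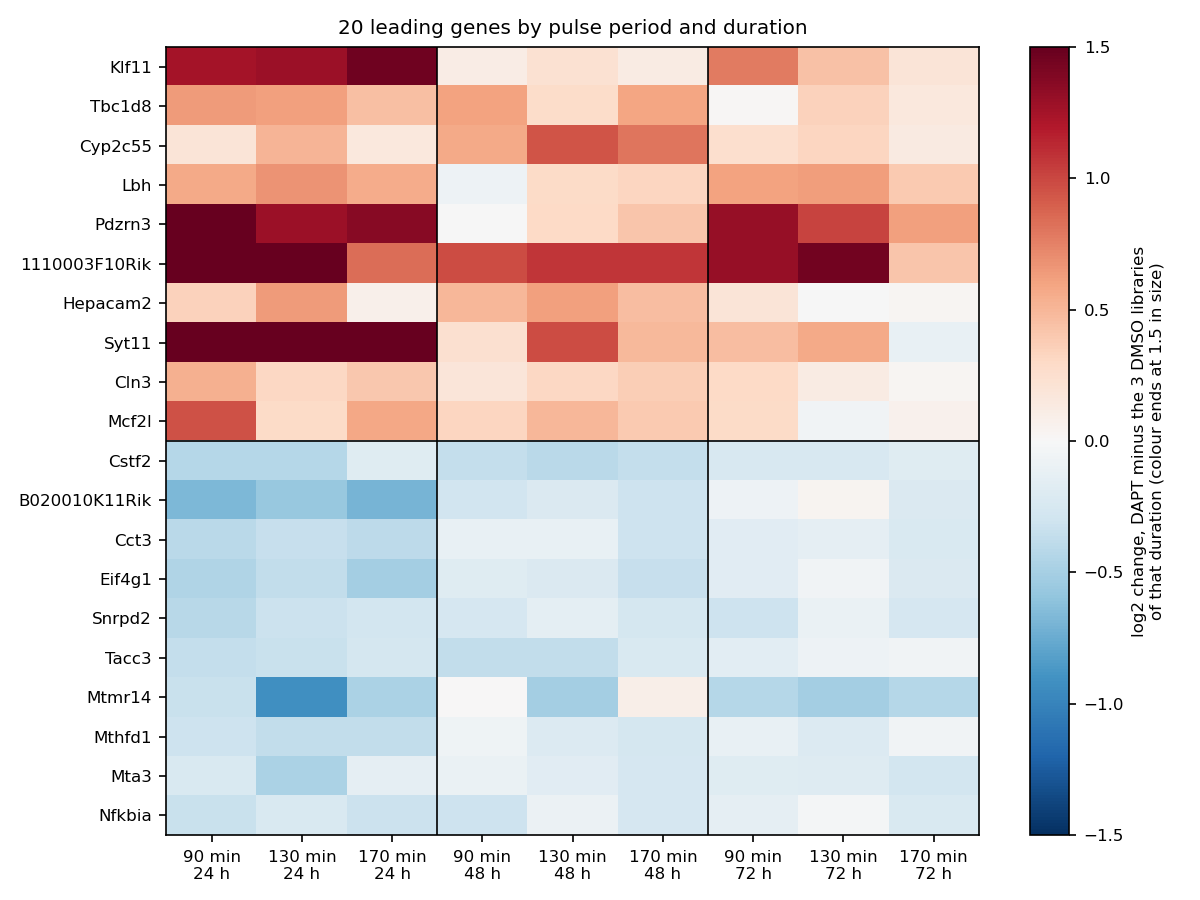
The 10 higher and 10 lower leading genes (vertical axis) are shown by pulse period and duration (horizontal axis), and colour gives the log2 change against the 3 DMSO libraries of that duration. Klf11, Pdzrn3, 1110003F10Rik and Syt11 reach their deepest colour at 24 h, while Cstf2, Cct3 and Nfkbia are pale and of 1 sign throughout.

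Among the Notch receptors and their targets, no shared direction was seen. Hes1, the main oscillating target, ran from 272 to 408 CPM (median 329) with DAPT and from 292 to 444 (median 327) with DMSO. The log2 change was -0.08 (SE 0.062, 95% interval -0.20 to 0.05), with -0.24 (SE 0.11) at 24 h, 0.05 at 48 h and -0.04 at 72 h. At 24 h the DMSO libraries were at 292, 409 and 444 CPM and overlapped the DAPT range of 272 to 371. By period the estimates for Hes1 were -0.21 at 90 min, 0.02 at 130 min and -0.04 at 170 min, against the same DMSO libraries. Notch2, a receptor, was at 113 ± 17.4 CPM (SD, n = 27) and 112 ± 11.0 (SD, n = 9), a change of 0.00 (95% interval -0.17 to 0.17), and Jag1, a ligand, stood at -0.05 (95% interval -0.30 to 0.19). Of the 10 tested Notch targets and receptors, 5 stood higher and 5 lower with a median of 0.00, and only Dtx4, a Deltex ubiquitin ligase, had an unadjusted p under 0.05 (-0.17, SE 0.083). Rbpj stood at 0.13 (SE 0.077). Nrarp and Notch1 did not pass the filter. Of 11 tested genes of gamma-secretase and Notch processing, 3 stood higher and 8 lower, and the members at an unadjusted p under 0.05 were Ncstn, the nicastrin subunit of gamma-secretase (-0.16, SE 0.065), and Adam10, the protease that makes the first cut in the receptor (-0.14, SE 0.057).

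**Figure D3:**
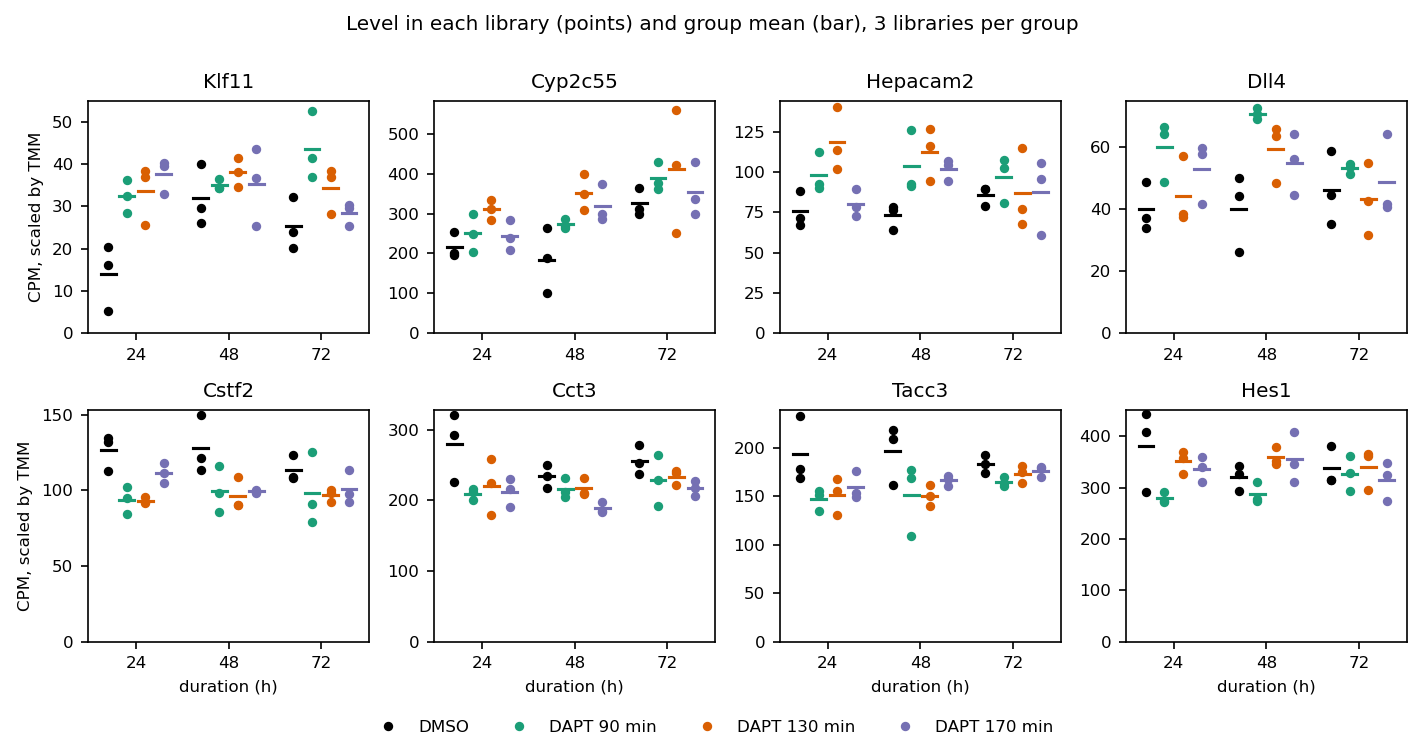
Points are single libraries and short bars are group means of 3 libraries, with duration on the horizontal axis and CPM scaled by TMM on the vertical axis, which starts at 0. Klf11 separates at 24 h, Cyp2c55 and Hepacam2 at 48 h, and the DMSO libraries of Hes1 overlap the DAPT libraries at every duration.

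The Notch ligands and early secretory factors, which Notch signalling represses in the crypt, stood mostly higher without passing the test. Dll4 ran from 31.7 to 72.5 CPM (median 54.9) with DAPT and from 26.0 to 58.7 (median 44.2) with DMSO, with overlap at every duration. Its change was 0.35 (SE 0.12, unadjusted p = 0.00476), with 0.41 at 24 h, 0.60 at 48 h and 0.05 at 72 h, and with 0.54, 0.20 and 0.31 for 90, 130 and 170 min. Gfi1, a transcriptional repressor needed in goblet and Paneth precursors, ran from 13.4 to 54.3 CPM with DAPT and from 19.0 to 35.2 with DMSO (0.37, SE 0.16). Atoh1 ran from 58.1 to 154 CPM with DAPT and from 76.1 to 109 with DMSO, a change of 0.15 (95% interval -0.05 to 0.36), so the DAPT libraries extended both above and below the controls. Dll1 stood at 0.18 (SE 0.10) and Spdef, a goblet and Paneth factor, at 0.29 (SE 0.16). Rgs2, a regulator of G protein signalling (0.51, SE 0.18), Mex3a, an RNA-binding protein of slow-cycling progenitors (0.45, SE 0.16), and Cbfa2t3, a corepressor (0.23, SE 0.093), were the other members with an unadjusted p under 0.05.

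Of the 15 tested secretory progenitor genes, 12 stood higher and 3 lower, with a median log2 change of 0.23 against 0.00 over all tested genes, of which 51.47% stood higher. The 5 members at an unadjusted p under 0.05 were all higher, and 0 passed the adjusted threshold. The medians for 24, 48 and 72 h were 0.34, 0.35 and 0.09. With library depth (log2 total) in the model, 14 of 15 stood higher with a median of 0.17, and without the 24 h libraries 14 of 15 with 0.22. When each of the 36 libraries was left out in turn the median ran from 0.19 to 0.38, the highest without replicate 1 of the DMSO libraries of 48 h. Of these 15 genes 7 lay in the lowest tertile of tested genes by mean level, where 68.5% of all genes stood higher. In the highest tertile, where 22.8% of all genes stood higher, there were 4.

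Goblet genes leaned the same way with smaller values. Of 27 tested, 21 stood higher and 6 lower, with a median of 0.09 (0.01, 0.32 and 0.03 at 24, 48 and 72 h). The 4 members at an unadjusted p under 0.05 were Sytl2, a granule-docking protein (0.31, SE 0.12), Creb3l4, a membrane-bound transcription factor (0.28, SE 0.11), Ramp1, a receptor-modifying protein (0.35, SE 0.14), and Fer1l6, of the ferlin family (0.45, SE 0.19). The abundant products of mature goblet cells were near 0: Muc2, the main secreted mucin, stood at 0.01 (95% interval -0.23 to 0.25) and Tff3, a trefoil peptide, at 0.08 (95% interval -0.11 to 0.27). Here 17 of 27 members belonged to the highest tertile by mean level, where only 22.8% of all genes stood higher. With library depth in the model 25 of 27 goblet genes stood higher, with a median of 0.11. Without replicate 3 of the 130 min libraries of 72 h the median was 0.06, and without replicate 3 of the DMSO libraries of 24 h 2 members in place of 4 were at such a p.

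Enteroendocrine and tuft genes had larger medians and far wider errors. Of 19 tested enteroendocrine genes 17 stood higher, with a median of 0.35. In the lowest tertile by mean level, where 68.5% of all genes stood higher, lay 9 of the 19. Chga, the granule protein that marks these cells, ran from 0 to 170 CPM within the DAPT libraries and from 6.34 to 127 within DMSO. Its 95% interval reached from -0.97 to 1.65. Chga and Chgb summed to 1.04 to 50.9 CPM (not scaled by TMM) in replicate 1 of 130 and 170 min at every duration. Replicates 2 and 3 of those periods summed to 387 to 577 CPM at 24 and 48 h, and to 6.66 to 594 at 72 h. Pax6, an endocrine transcription factor, stood at 1.28 (SE 0.59), and Nts, the neurotensin gene, at -1.27 (SE 0.45), a value that became 0.60 when replicate 2 of the DMSO libraries of 24 h was left out. Of 12 tested tuft genes 9 stood higher, with a median of 0.30, and Dclk1, a tuft kinase, had an interval from -0.38 to 1.75. The tuft medians for 24, 48 and 72 h were 0.82, -0.06 and 0.11, and 11 of its 12 members lay in the lowest tertile by mean level. Single libraries moved these medians. The enteroendocrine median was 0.01, with 10 of 20 members higher, without replicate 3 of the 130 min libraries of 72 h, and 0.57 without replicate 1 of the DMSO libraries of 48 h. Without the same libraries the tuft median was 0.18 and 0.61. Paneth genes stood 9 higher and 5 lower with a median of 0.07 (-0.01 without replicate 3 of the 130 min or of the DMSO libraries of 72 h), and Lyz1, lysozyme of the Paneth granule, had an interval from -0.59 to 0.61.

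**Figure D4:**
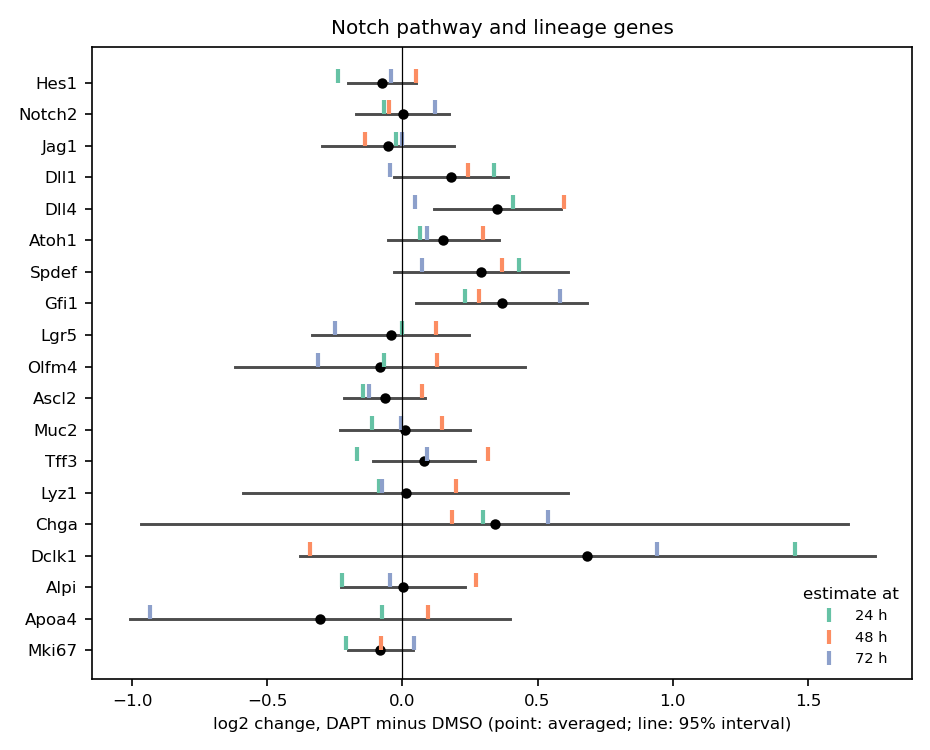
Black points are averaged log2 changes, DAPT minus DMSO, with their 95% intervals as lines, and coloured ticks are the estimates at 24, 48 and 72 h. Intervals for Dll4 and Gfi1 lie above 0 before adjustment for the number of genes, and those for Chga, Dclk1, Apoa4 and Lyz1 are the widest.

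Stem cell and absorptive genes mostly gave averaged estimates near 0, some of them with wide intervals. Lgr5, the receptor that marks crypt stem cells, ran from 60.9 to 209 CPM (median 160) with DAPT and from 104 to 266 (median 154) with DMSO, a change of -0.04 (95% interval -0.33 to 0.25). Olfm4, a secreted stem cell marker and Notch target, ran from 76.5 to 983 CPM with DAPT and from 374 to 978 with DMSO, with an interval from -0.62 to 0.45. Ascl2, a stem cell transcription factor, stood at -0.07 (SE 0.073). Of 18 stem cell genes, 4 stood higher and 14 lower with a median of -0.04, and 15 of them were in the highest tertile by level, where 22.8% of all genes stood higher. That split turned to 12 higher and 6 lower (median 0.03) with library depth in the model, and to 11 higher and 7 lower (0.01) without replicate 1 of the DMSO libraries of 24 h. Alpi, the alkaline phosphatase of the brush border, stood at 0.00 (SE 0.11). Apoa4, another enterocyte marker, stood at -0.31, and between -0.73 and -0.08 when 1 library or 1 replicate number was left out. Of 34 enterocyte genes, 23 of them in the highest tertile by level, 9 stood higher and 25 lower with a median of -0.04. That value averages over unlike durations, since the enterocyte medians were -0.03, 0.22 and -0.39 at 24, 48 and 72 h. The enterocyte split was 16 higher and 18 lower (0.00) with library depth in the model, and its median depended on single libraries, from -0.16 without replicate 3 of the DMSO libraries of 48 h to 0.06 without replicate 2 of the same group. Cyp3a11, a cytochrome P450, was the single enterocyte gene at an unadjusted p under 0.05, and it was higher (0.39, SE 0.18).

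The direction of change followed the level of a gene. In the lowest tertile of tested genes by mean level, 68.5% stood higher with DAPT (median 0.09), in the middle tertile 63.1% (median 0.03) and in the highest tertile 22.8% (median -0.06). At an unadjusted p under 0.05 there were 179 higher and 19 lower genes in the lowest tertile and 20 higher and 354 lower in the highest. The 354 became 136 without replicate 1 of the DMSO libraries of 24 h, the shallowest library, 190 without replicate 2 of those of 48 h, 162 without replicate 1 of those of 72 h and 537 without replicate 1 of those of 48 h. The median of the highest tertile was between -0.07 and -0.04 and that of the lowest between 0.07 and 0.13 whichever library was left out. The pattern was steepest at 24 h, with medians of 0.20 in the lowest and -0.14 in the highest tertile, and was 0.03 and -0.02 at 48 h and 0.02 and -0.01 at 72 h. Library totals moved with it, since 24 h was the duration at which the DMSO libraries were shallowest. Depth and treatment cannot be told apart there, and a covariate for depth can remove an effect of either. With library depth (log2 total) in the model, 51.2, 49.6 and 47.7% of the lowest, middle and highest tertiles stood higher, and 381 genes in all, in place of 765, had an unadjusted p under 0.05. Without the 24 h libraries 38.8% of the highest tertile stood higher and 458 genes in all had such a p. Under upper-quartile scaling the split of such genes was 469 higher and 239 lower, against 357 and 408 under TMM scaling, and 33.7% of the highest tertile stood higher.

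Gene lists of the basic cell machinery, whose members are abundant, stood lower within that pattern. Of 75 tested nuclear-encoded respiratory chain genes 71 stood lower (median -0.11), 27 of them at an unadjusted p under 0.05, and 66 of the 75 lay in the highest tertile by level. Ndufs4, of complex I (-0.17, SE 0.054), and Uqcrb, of complex III (-0.19, SE 0.062), led the lower members, and Atp5l, of the ATP synthase, stood higher (0.52, SE 0.16). Pseudogene copies of Atp5l are listed in the same table, and how molecules were split among them is uncertain. All 8 CCT chaperonin subunits stood lower (median -0.12), with Cct3, Cct2 (-0.18, SE 0.060) and Tcp1 (-0.13, SE 0.056) at an unadjusted p under 0.05. Of 34 translation initiation factors 30 stood lower, 9 of them at such a p, Eif4g1 and Eif3c (-0.23, SE 0.087) first. The proteasome stood lower in 29 of 31 genes (median -0.08), 6 of them at such a p, and ribosome biogenesis in 25 of 29 (median -0.08). In the highest tertile 22.8% of all genes stood higher, and it held all 8 CCT subunits, 27 of the 34 initiation factors, 27 of the 31 proteasome genes and 22 of the 29 ribosome biogenesis genes.

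The counts at an unadjusted p under 0.05 in these lists depended on single DMSO libraries. Without replicate 1 of 24 h, at 482741 molecules the shallowest, the respiratory chain had 6 lower members at such a p in place of 27, the initiation factors 3 in place of 9 and the proteasome 1 in place of 6. Without replicate 2 of 48 h these counts were 12, 4 and 3, and without replicate 1 of 72 h they were 11, 4 and 2. The respiratory chain still stood lower in 70 of 76 tested members without replicate 1 of 24 h, with a median of -0.07. The CCT subunits stood lower in 8 of 8 cases whichever library was left out, with medians from -0.15 to -0.09.

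In each of these lists 0 members passed the adjusted threshold, and the medians were smaller in size at 48 and 72 h than at 24 h. For 24, 48 and 72 h the respiratory chain had medians of -0.20, -0.04 and -0.10, and CCT had -0.29, -0.09 and -0.02. With library depth in the model the median was -0.04 for the respiratory chain with 63 of 75 lower, -0.04 for CCT with 8 of 8 lower, -0.02 for initiation factors with 24 of 34 lower and -0.02 for the proteasome with 23 of 31 lower. Under upper-quartile scaling the respiratory chain stood at -0.08 with 71 of 75 lower.

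**Figure D5:**
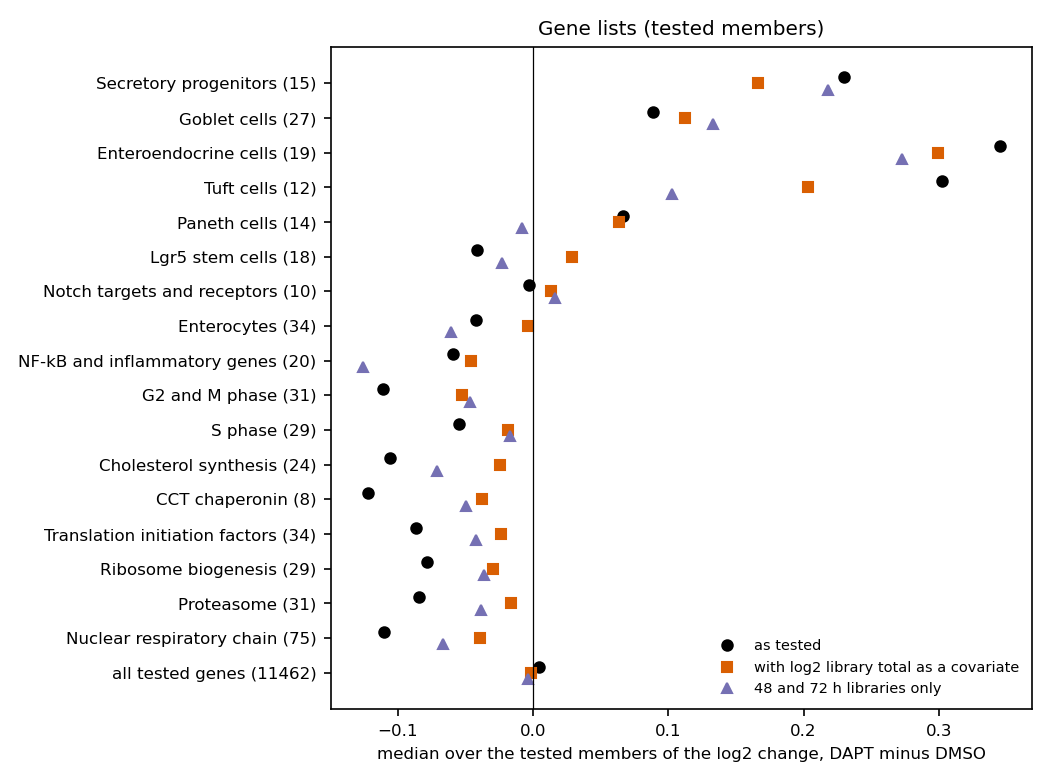
Each line is a gene list with its number of tested members, and the symbols give the median log2 change as tested, with library depth (log2 total) in the model, and in the 48 and 72 h libraries only. The lists of cell machinery move towards 0 with the covariate, from -0.11 to -0.04 for the respiratory chain, and secretory progenitors from 0.23 to 0.17.

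Mitotic genes stood lower with small values. Of 31 tested genes of the G2 and M phases 25 stood lower (median -0.11), 10 of them at an unadjusted p under 0.05, among them Tacc3, Plk1, a mitotic kinase (-0.21, SE 0.078), Tpx2, a spindle assembly factor (-0.14, SE 0.055), and Cdk1, the kinase that drives entry into mitosis (-0.15, SE 0.059). Mki67, a marker of cycling cells, stood at -0.08 (95% interval -0.20 to 0.04). The list medians for 24, 48 and 72 h were -0.17, -0.08 and -0.02, and with library depth in the model the averaged median was -0.05 with 3 members at such a p. Without replicate 1 of the DMSO libraries of 24 h it was -0.06 with 1 member at such a p, without replicate 3 of those of 48 h -0.06 with 3, and without replicate 1 of those of 72 h -0.09 with 6. Of these genes 19 lay in the highest tertile by level, where 22.8% of all genes stood higher, and 3.56% of all tested genes were lower at such a p. Of 29 S phase genes 20 stood lower (median -0.05, or -0.01 without replicate 3 of the DMSO libraries of 48 h), with Rpa2, Rrm1 and Pcna between -0.15 and -0.16.

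Cholesterol synthesis genes stood lower in 22 of 24 cases (median -0.11), with Acat2 (-0.19, SE 0.063), Nsdhl (-0.18, SE 0.068) and Fdft1 (-0.16, SE 0.069), enzymes of the pathway, at an unadjusted p under 0.05. Of the 24 genes 18 lay in the highest tertile by level, where 22.8% of all genes stood higher. The median was -0.02 with library depth in the model, with 15 of 24 lower, -0.07 without replicate 1 of the DMSO libraries of 24 h and -0.08 without replicate 2 of those of 48 h, each with 1 member at such a p.

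NF-kB and inflammatory genes were divided, 8 higher and 12 lower, with a median of -0.06. The 4 members at an unadjusted p under 0.05 were all lower: Nfkbia, Tnf, Ccl20, a chemokine (-0.33, SE 0.11), and Pigr, the receptor that carries immunoglobulin A across the epithelium (-0.26, SE 0.12). Tnf, the tumour necrosis factor cytokine, was at 41.7, 45.8 and 70.2 CPM in the DMSO libraries of 48 h and at 17.3 to 39.4 in the DAPT libraries, so the groups did not overlap there. They did overlap at 24 h and at 72 h, and its change was -0.47, -1.06 and -0.18 at 24, 48 and 72 h (-0.57, SE 0.17 averaged). Leaving out a library let 22 or 23 members pass the filter in place of 20, and the list median then ran from -0.22 to -0.06. With library depth in the model the list median was -0.05 and Tnf stood at -0.72. Of 11 genes of the Reg family and early enterocytes 9 stood lower, with Reg3g, a secreted antimicrobial lectin (-0.53, SE 0.19), Dmbt1, a mucosal scavenger protein (-0.39, SE 0.15), and Gpx2, the epithelial glutathione peroxidase (-0.18, SE 0.062), at an unadjusted p under 0.05. The median of that list was -0.10, and -0.03 with 6 of 11 lower without replicate 2 of the DMSO libraries of 48 h. By duration its medians were -0.15, 0.24 and -0.48 at 24, 48 and 72 h.

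Besides Klf11, 2 of the 14 tested Klf and Elf transcription factors had an unadjusted p under 0.05, both higher: Klf4, a factor of differentiated epithelium and goblet cells (0.27, SE 0.10), and Klf10 (0.20, SE 0.096). The list as a whole stood 6 higher and 8 lower with a median of 0.00, or 9 higher and 5 lower (0.01) with library depth in the model. Among 21 p53 targets the 2 at such a p were Trp53inp1 (0.47, SE 0.16) and Btg2 (0.13, SE 0.060), both known as antiproliferative, while Cdkn1a, the cell cycle inhibitor p21, stood at 0.01 (SE 0.11).

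At single durations 0 genes passed the adjusted threshold in edgeR's test. There were 1155 genes at an unadjusted p under 0.05 at 24 h (404 higher and 751 lower), 277 at 48 h and 465 at 72 h. These were 10.1, 2.42 and 4.06% of those tested. With library depth (log2 total) in the model the counts for 24, 48 and 72 h were 305, 333 and 562, so 24 h no longer held the most. Depth went with treatment at 24 h, so this fit cannot tell a depth effect from a DAPT effect there. The 24 h count also fell when replicate 1 of the DMSO libraries of 24 h, the shallowest library, was left out. Groups that did not overlap, with all 9 DAPT libraries on 1 side of all 3 DMSO libraries, were found for 106 genes at 24 h (0.925% of those tested), 85 at 48 h (0.742%) and 76 at 72 h (0.663%). No gene was separated in the same direction at all 3 durations (0%), and none at 2 of them.

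The genes leading at each duration differed in name. At 24 h, beside Klf11 and B020010K11Rik, they were Kansl2, of a histone acetyltransferase complex (1.55, SE 0.40), Phf14, a PHD finger protein (0.54, SE 0.14), Smc4, of condensin (-0.46, SE 0.12), and Tmed2, of vesicle transport (-0.51, SE 0.13). At 48 h, beside Cyp2c55, Hepacam2, Tnf and Cstf2, they were Fam117a (0.68, SE 0.19) and Isy1, a splicing factor (-0.28, SE 0.080). At 72 h they were Egfr, the epidermal growth factor receptor (0.63, SE 0.17), Mef2d, a transcription factor (0.46, SE 0.14), Mga, a partner of Max (0.56, SE 0.17), 2310001H17Rik (-0.55, SE 0.15), Casp1, the inflammasome caspase (-0.38, SE 0.10), and Atxn2l, of stress granules (-0.66, SE 0.19). Whether the DAPT effect differed between durations was tested directly by the interaction, which called 0 genes, while 452 had an unadjusted p under 0.05 and the smallest adjusted p was 0.99. The genes with the smallest interaction p were 2310001H17Rik, Mkrn2, Narf, Nudt16 and Foxj2. Foxj2, a forkhead factor, stood at 1.16 at 24 h, 0.02 at 48 h and -0.33 at 72 h.

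Pooling averages over the 3 periods. The test of any difference among periods, averaged over durations, called 0 genes in edgeR (smallest adjusted p 0.355). At an unadjusted p under 0.05 there were 1024 genes, and 444 with library depth (log2 total) in the model. The 130 min libraries were the shallowest of the 3 periods, with a median of 876314 molecules. The medians were 1088495 for 90 min and 1121958 for 170 min. In the test among periods DESeq2 called 22 genes, Gm10800 and Gm10801 among them but not Gm10715. The fit by limma voom with same-numbered libraries of the paired treatments as a random block called 2. Gm10715, Gm10800 and Gm10801 are predicted genes of similar, repetitive sequence, so how molecules were split among them is uncertain. They stood highest at 130 min, with log2 changes against DMSO of 0.59, 3.03 and 0.90 for Gm10715 and of 0.29, 1.52 and 0.28 for Gm10800 at 90, 130 and 170 min. Their pooled changes were 1.51 for Gm10715, 0.69 for Gm10800 and 0.81 for Gm10801. For Gm10715 and Gm10800 these average over unequal estimates, though edgeR called no difference among periods. Tom1l1, an adaptor of endosomal sorting, stood at -0.17, 0.12 and -0.10, and Rnf13, a ubiquitin ligase of endosomal membranes, at 0.02, 0.24 and 0.00 for the same periods.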

How the data were processed

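The 36 organoid libraries were prepared by Sort-seq, a method for polyadenylated RNA that barcodes each molecule (UMI), per the labels' protocols. The submitters' processing notes name STAR 2.7.8a, an aligner, and UMI-tools 1.1.1, which collapses reads to molecules. The genome build, annotation and UMI handling: not given in the sources used here. The table deposited by the authors holds counts, whole numbers of molecules for each gene symbol and library, and its columns sum to different totals.

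Groups came from the labels. Counts of 34197 genes were filtered with edgeR's filterByExpr over the 12 groups, scaled by TMM, and fitted with a robust quasi-likelihood model with 1 mean per group (edgeR 4.0.16, R 4.3.3; biological coefficient of variation 0.145; 24 residual degrees of freedom). The contrast weighted periods and durations equally. The model was tested on simulated counts of independent libraries without a duration effect, so that test does not cover linked libraries. Other fits included DESeq2 1.42.0 and limma 3.58.1 voom. Replicate libraries of the same group differed by more than sampling noise (chi-square per degree of freedom 1.26 to 4.83 between 2 replicates). Precision is limited by depth, and low genes have wide errors.

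Named genes were the 10 higher and 10 lower with the smallest p and 1 sign at every duration and period, 3 and 3 per duration, 5 for the interaction and for periods, up to 4 members per list at an unadjusted p under 0.05, and a panel of Notch and lineage genes; others named from lists were chosen after their values were seen. The members and lists were chosen with earlier results of these data known.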

Additional observations from a re-analysis of the deposited data

How the results depend on the processing

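The averaged comparison was recomputed under 57 alternatives, 36 of which leave out 1 library each. It called 0 genes with RLE scaling, upper-quartile scaling, DESeq2, voom, the 10-CPM filter, depth as a covariate, both additive models, and without any 1 period or any 1 duration. At unadjusted p under 0.05 these counts ran from 381 with the depth covariate to 1404 without the 130 min period. Replicate numbers paired the 130 min with the 170 min libraries (9 of 9 correlations above 0.1) and mostly the 90 min with the DMSO libraries (8 of 9). They did not pair DAPT with DMSO as a whole (11 of 27), so no block entered the reported fit. That fit, and the counts out of 27 DAPT libraries, therefore treat linked libraries as independent. Only 2 of 9 pairs of 130 min and DMSO libraries, and 1 of 9 of 170 min and DMSO, were above 0.1. For 130 and 170 min a difference from DMSO cannot be told apart from a difference between the linked sets. With the replicate number as a replicate block, 0 genes were called (smallest adjusted p 0.176, edgeR), and 0 with the replicate block set within each duration (0.0807). That second block called 1 gene at 24 h, B020010K11Rik (adjusted p 0.0437). A random replicate block within the 2 pairs of treatments in limma voom, chosen after seeing the data (correlation within a block 0.194), called 0 genes in the averaged comparison (smallest adjusted p 0.119) and 2 among periods, 2210407C18Rik and Tm4sf4 (0.0335 and 0.0412).

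Keeping every gene with at least 1 count gave the most calls in edgeR, and the genes named from here on were chosen after their values were seen. It called 1 gene in the averaged comparison and 1 at 24 h, in both cases B020010K11Rik (adjusted p 0.0257 and 0.00481). At 48 h it called 1 gene, Tnf (log2 difference -1.057, adjusted p 0.0426). At 72 h it called 3, Gm18996, Gm16559 and Asah2, all lower with DAPT (smallest adjusted p 0.00404). The interaction with duration called 5, namely Asah2, Slc4a11, Ifi202b, Gm16559 and Fmo4 (smallest adjusted p 0.0115). All of these but Gm18996 were also tested in the filtered table, where none passed. The test of any difference among the 3 periods called 10 genes without the filter (smallest adjusted p 5.9e-06) and 22 with DESeq2 (0.00293); the cause was not tested. Leaving out 1 library or 1 replicate number gave 0 to 1 genes in the averaged comparison, 0 to 2 at 24 h and 0 to 1 among periods. The averaged calls were Cstf2 without 90 min DAPT, 72 h, replicate 1 (adjusted p 0.0311) and Klf11 without DMSO, 24 h, replicate 3 (0.0399). Without that DMSO library Klf11 (log2 difference 1.877, adjusted p 0.0453) and Pgk1 (-0.743, 0.0482) were called at 24 h. Among periods the calls were Gm10718 without replicate 3, Rnf11 without 130 min DAPT, 24 h, replicate 1, and 2210407C18Rik without 90 min DAPT, 24 h, replicate 2.

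Of 132 single-gene results, 13 changed sign under at least 1 alternative run. The other 119 include the results of the interaction and period tests, which have no sign to change. The averaged log2 difference of Hes1 became 0.0088 with the depth covariate and 0.00059 without 24 h. Notch2 became -0.00035 with the replicate block, -0.046 without 130 min and -0.053 without 72 h. Jag1 became 0.013 without 170 min. Lgr5 became 0.035 with voom, 0.029 with the random block, 0.033 with the covariate and 0.066 without 72 h. Olfm4 became 0.019 with the covariate, 0.0047 without 90 min and 0.038 without 72 h. Muc2 became -0.062 without 90 min, -0.010 without 130 min and -0.056 without 48 h, and Tff3 became -0.036 without 48 h. Lyz1 became -0.047 and -0.090 with the 2 replicate blocks, -0.089 without 130 min and -0.077 without 48 h. Chga became -0.014 with voom and -0.0079 with the random block. Alpi became -0.0073 and -0.00046 with the 2 blocks, -0.056 without 130 min and -0.13 without 48 h. Apoa4 became 0.0094 without 72 h. When 1 library or 1 replicate number was left out, the ranges that crossed 0 were -0.153 to 0.166 for Alpi, -0.115 to 0.0043 for Ascl2, -0.558 to 1.02 for Chga, -0.117 to 0.031 for Jag1, -0.141 to 0.103 for Lgr5, -0.389 to 0.368 for Lyz1, -0.075 to 0.112 for Muc2, -0.070 to 0.051 for Notch2, -1.99 to 0.603 for Nts and -0.244 to 0.026 for Olfm4. The cause of these sign changes was not tested; none of these genes passed in any setting.

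DMSO was represented by 3 libraries at each duration and 9 in all, against 27 with DAPT, so the DMSO side sets most of the error. Averaging over 3 periods hides any pair of periods that differ in opposite directions from DMSO. An adjusted p above the threshold does not show that DAPT and DMSO libraries were alike, and low-count genes such as Nts and Chga have intervals too wide to bound their difference closely.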
